A study of Homo sapiens with 6 samples.

Results

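Cohesin and condensin are ring-shaped complexes that act on chromatin, and the transcripts of their subunits were followed in cells in which the histone mRNA binding protein SLBP is targeted by a hairpin. The group held 10 genes, chosen by name: the cohesin subunits SMC1A, SMC3, RAD21, STAG1 and STAG2, and the condensin subunits SMC2, SMC4, NCAPD2, NCAPG and NCAPH. A gene was counted as measured where a probe set (the group of probes that the array summarises to 1 value) was annotated to that gene alone, and 9 of the 10 were, among 22411 genes tested. RAD21, the subunit that closes the cohesin ring, was annotated through a probe set that also carries the symbol MIR3610. It is therefore not counted, and the values of that shared probe set are given on their own below.

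The HCT-shSLBP cells were made from HCT116, an established line from a human colon carcinoma, and by their name carry a hairpin RNA (sh) directed at SLBP, the stem-loop binding protein that histone mRNAs need for their 3' end processing. The groups were 3 untreated cultures (Control) and 3 cultures given doxycycline at 2 µg/ml (Dox), all of the same hairpin line, each on 1 Affymetrix array. The duration of treatment, and whether the line is 1 clone, are not stated in the labels. No cells without the hairpin were given the drug in this comparison, so effects of the drug and of the hairpin cannot be told apart.

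In mitosis and interphase, cohesin holds sister chromatids together and extrudes chromatin loops. SMC1A and SMC3 form its hinged pair of arms, a kleisin (RAD21 in somatic cells) bridges their heads, and either STAG1 or STAG2 binds the kleisin. Condensin compacts chromosomes for mitosis with a different pair of arms, SMC2 and SMC4. In condensin I these are joined by the kleisin NCAPH and the HEAT-repeat subunits NCAPD2 and NCAPG, and in condensin II by NCAPH2, NCAPD3 and NCAPG2. Several condensin genes are known to be transcribed most strongly late in the cell cycle.

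All values are log2 RMA signals, and a change is the Dox mean minus the Control mean on that scale. The words rose and fell are used for genes with a limma adjusted p under 0.05 (Benjamini-Hochberg over all 22411 genes). SLBP served as the check of the labels. Its signal was 8.09, 8.04 and 8.08 in the Control cultures and 7.38, 7.19 and 7.32 in the Dox cultures, so no Dox array reached the Control range. The change was -0.77 (SE 0.055, limma adjusted p = 0.00322), and an exact two-sided permutation test returned p = 0.1, which no comparison of 3 with 3 arrays can undercut. The yardstick for background was 4.52, the 95th percentile of 359 olfactory receptor genes, taken over from an earlier treatment of these data. All 8 epithelial markers, most of them not particular to intestine, were above 4.52, with CDX2 and VIL1 close to it. Of these markers CLDN7 rose (0.19, limma adjusted p = 0.0336). Of 11 measured markers of fibroblasts, blood, endothelium and liver, 4 were above the yardstick, COL1A1, COL1A2, VWF and CDH5. The log2 of the summed signal of the 11 was 7.65 to 7.66 in Control and 7.66 to 7.73 in Dox.

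Of the 9 measured subunits, 4 fell and none rose. SMC1A and STAG1 fell in cohesin, and NCAPG and NCAPH fell in condensin, to between 78.0% and 83.6% of the Control signal. Across all genes tested, 3.27% fell and 2.93% rose. Means were lower in Dox for 8 of the 9, with STAG2 as the exception, while 58.2% of all genes had lower means. The median change over the 9 subunits was -0.21, beside -0.019 over all genes. All 9 had a mean signal above the olfactory receptor level. In RNA from whole cultures, fewer cells that express a gene and less RNA per cell cannot be told apart.

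**Figure D1:**
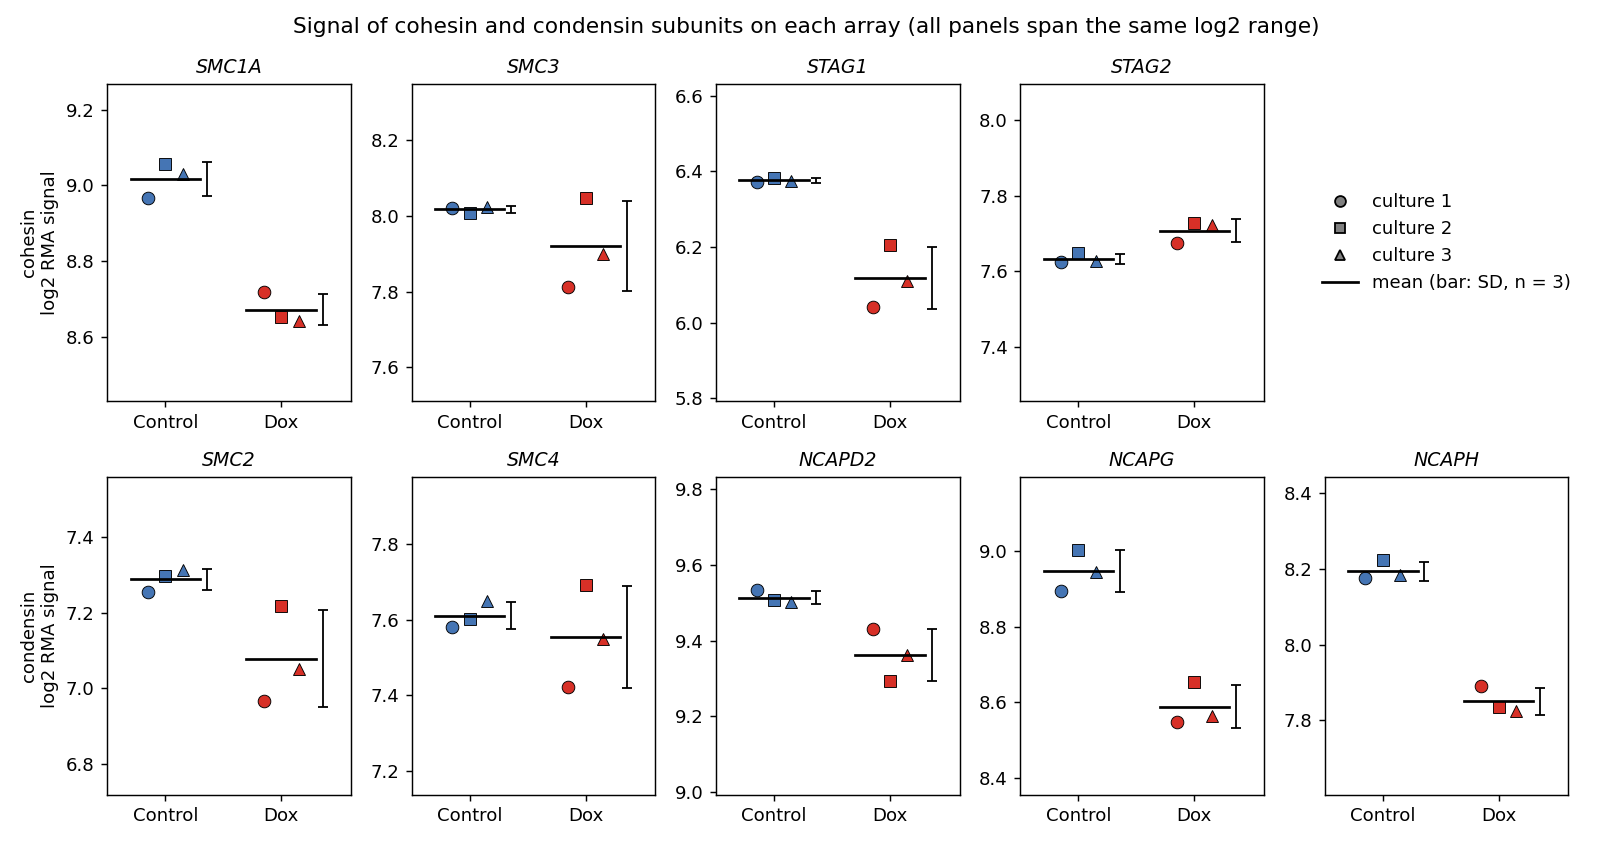
Log2 RMA signal (vertical axis) of each measured cohesin subunit (upper row) and condensin subunit (lower row) in the 3 Control and 3 Dox cultures; points are arrays, with shape giving the culture number, lines are means and bars are SD (n = 3). Every panel spans the same log2 range. SMC1A, NCAPG and NCAPH are separated by the widest gaps, while the Dox values of SMC3, SMC2 and SMC4 are spread out and reach or approach the Control values.

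Among the arms of cohesin, SMC1A fell and SMC3 did not pass the test. SMC1A (probe set TC0X001064.hg.1, chromosome X) had signals of 8.97, 9.06 and 9.03 in Control and 8.72, 8.65 and 8.64 in Dox. The Dox arrays lay close together and all below the lowest Control array. Its mean went from 9.02 ± 0.045 to 8.67 ± 0.041 (SD, n = 3 per group), a change of -0.35 (SE 0.042, limma adjusted p = 0.0101), and 0.937% of all genes had a larger fall. SMC3 (TC10000802.hg.1, chromosome 10), its partner in the ring, had signals of 8.02, 8.01 and 8.03 in Control and 7.81, 8.05 and 7.90 in Dox. Dox culture 2 was above every Control array and the other Dox cultures were below, so the groups overlapped. The change of SMC3 was -0.098 (95% interval -0.24 to 0.046, limma adjusted p = 0.403).

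The interchangeable STAG subunits lay on opposite sides of Control, and STAG1 alone passed the test. STAG1 (TC03001812.hg.1, chromosome 3) had signals of 6.37, 6.38 and 6.37 in Control and 6.04, 6.20 and 6.11 in Dox. All Dox arrays were lower, with a spread of 0.082 (SD) against 0.0062 in Control. The change was -0.26 (SE 0.049, limma adjusted p = 0.0291), and with each array centred on its median the call was lost (limma adjusted p = 0.0514). STAG2 (TC0X000606.hg.1, chromosome X) had signals of 7.63, 7.65 and 7.63 in Control and 7.67, 7.73 and 7.72 in Dox. Here all Dox arrays were higher, by a small margin that did not pass the test (0.074, 95% interval -0.011 to 0.16, limma adjusted p = 0.282). Groups that do not overlap were found in 16.7% of all genes with Dox lower and in 12.5% with Dox higher.

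The probe set annotated to both RAD21 and MIR3610 (TC08001546.hg.1) had signals of 8.78, 8.77 and 8.78 in Control and 8.74, 8.81 and 8.75 in Dox. Dox culture 2 was above and the other Dox cultures below the Control values. The change was -0.012 (95% interval -0.10 to 0.076, limma adjusted p = 0.887), and it cannot be assigned to either symbol.

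In condensin, the arms SMC2 and SMC4 did not pass the test. SMC2 (TC09000526.hg.1, chromosome 9) had signals of 7.26, 7.30 and 7.31 in Control and 6.97, 7.22 and 7.05 in Dox. The groups did not overlap, although Dox culture 2 came close to the Control range. The change was -0.21 (95% interval -0.36 to -0.055, limma adjusted p = 0.114). Without Dox replicate 2 it was -0.28, with limma adjusted p = 0.0427. On all 6 arrays SMC2 also passed with dim genes left out (limma adjusted p = 0.0379) and with array weights (limma adjusted p = 0.0213). SMC4 (TC03000873.hg.1, chromosome 3) had signals of 7.58, 7.60 and 7.65 in Control and 7.42, 7.69 and 7.55 in Dox. Its groups overlapped, with Dox culture 2 the highest of all 6 arrays. The change was -0.056 (95% interval -0.22 to 0.11, limma adjusted p = 0.686), and without Dox replicate 1 it was 0.0095.

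The kleisin NCAPH and the HEAT-repeat subunit NCAPG fell by nearly the same amount. NCAPG (TC04000155.hg.1, chromosome 4) had signals of 8.89, 9.00 and 8.94 in Control and 8.55, 8.65 and 8.56 in Dox. Each Dox array was below each Control array, with a spread that was alike in both groups. Its mean went from 8.95 ± 0.055 to 8.59 ± 0.057 (SD, n = 3 per group), a change of -0.36 (SE 0.048, limma adjusted p = 0.0115). NCAPH (TC02000582.hg.1, chromosome 2) had signals of 8.18, 8.22 and 8.18 in Control and 7.89, 7.83 and 7.82 in Dox, again with no overlap. Its mean went from 8.19 ± 0.025 to 7.85 ± 0.036, a change of -0.34 (SE 0.038, limma adjusted p = 0.00834), the smallest adjusted p of the 9 subunits. NCAPD2 (TC12000082.hg.1, chromosome 12), the other HEAT-repeat subunit of condensin I, had signals of 9.53, 9.51 and 9.50 in Control and 9.43, 9.29 and 9.36 in Dox. All its Dox arrays were lower, but the change of -0.15 (95% interval -0.26 to -0.045) did not pass (limma adjusted p = 0.102).

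**Figure D2:**
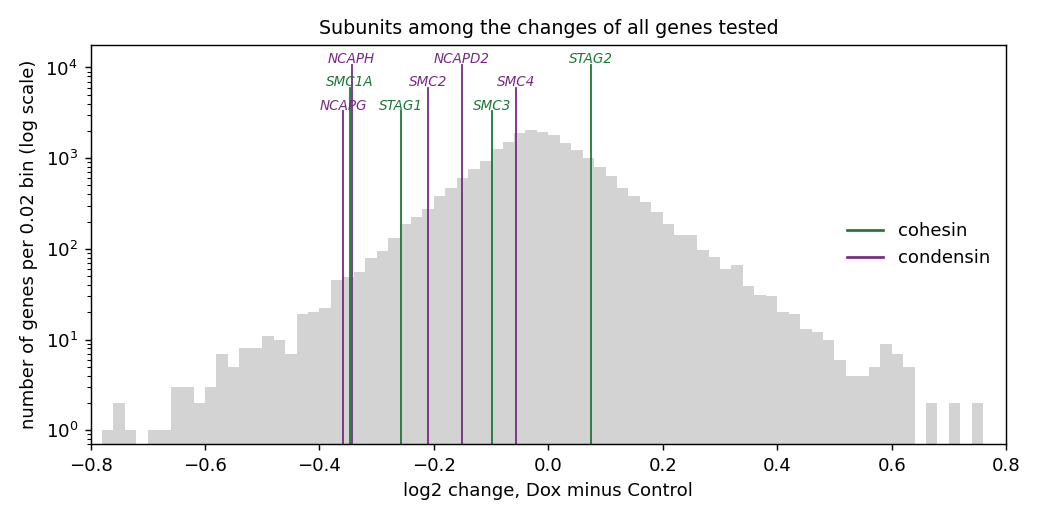
Histogram of the log2 change (Dox minus Control, horizontal axis) of all 22411 genes tested, with the number of genes per bin on a log scale (vertical axis); coloured lines mark the cohesin (green) and condensin (purple) subunits. SMC1A, NCAPG and NCAPH stand together near -0.35, and STAG2 is the one subunit to the right of 0.

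The RefSeq promoter windows of the 4 subunits that fell are shown because these are the transcripts that passed the test. Each runs 5' to 3' on the gene's strand from 250 bases before to 50 bases after an annotated start in GRCh38.p14. Capitals mark matches on either strand to TTTGAA (the core of the cell cycle homology region), CCAAT (the NF-Y box), and TTCCCGC or TTGGCGC (E2F sites). A match on the other strand appears as its reverse complement. The windows are chr4:17810729-17811028 on the + strand for NCAPG, chr2:96335516-96335815 on the + strand for NCAPH, chrX:53422605-53422904 on the - strand for SMC1A, and chr3:136752329-136752628 on the - strand for STAG1. SMC1A has a further window, which overlaps this one and holds no match, and the one shown was picked because it holds a match.
NCAPG: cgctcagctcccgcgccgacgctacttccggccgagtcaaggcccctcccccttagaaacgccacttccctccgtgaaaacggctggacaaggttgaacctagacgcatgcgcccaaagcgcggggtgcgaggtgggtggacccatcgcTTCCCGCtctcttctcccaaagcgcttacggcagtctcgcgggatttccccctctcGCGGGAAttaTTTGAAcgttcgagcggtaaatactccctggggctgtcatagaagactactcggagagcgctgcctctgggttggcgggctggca
NCAPH: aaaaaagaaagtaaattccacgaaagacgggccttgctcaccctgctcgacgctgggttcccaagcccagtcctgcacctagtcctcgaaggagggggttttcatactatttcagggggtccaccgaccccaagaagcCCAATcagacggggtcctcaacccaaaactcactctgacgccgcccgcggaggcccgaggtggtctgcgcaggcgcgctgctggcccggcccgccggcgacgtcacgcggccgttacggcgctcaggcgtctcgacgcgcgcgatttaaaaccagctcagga
SMC1A: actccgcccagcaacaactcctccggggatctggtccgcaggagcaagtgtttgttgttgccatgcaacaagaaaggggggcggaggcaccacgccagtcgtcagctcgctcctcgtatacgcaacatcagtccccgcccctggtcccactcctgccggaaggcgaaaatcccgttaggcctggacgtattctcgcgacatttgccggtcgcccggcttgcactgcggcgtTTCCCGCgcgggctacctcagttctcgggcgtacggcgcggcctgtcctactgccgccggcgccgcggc
STAG1: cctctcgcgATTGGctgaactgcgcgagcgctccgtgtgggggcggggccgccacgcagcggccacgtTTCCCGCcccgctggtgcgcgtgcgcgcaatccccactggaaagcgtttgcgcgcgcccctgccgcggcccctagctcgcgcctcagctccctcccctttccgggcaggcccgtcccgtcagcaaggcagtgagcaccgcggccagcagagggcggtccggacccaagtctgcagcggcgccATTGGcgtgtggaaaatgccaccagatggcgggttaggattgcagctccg

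In the NCAPG window, an E2F letter string starts 101 bases and another 45 bases before the annotated start, and TTTGAA follows the second at 35 bases before it. The NCAPH window holds CCAAT at 112 bases before the start and none of the other strings. The SMC1A window holds TTCCCGC at 19 bases and the STAG1 window at 182 bases before the start. RefSeq windows were matched for all 9 measured subunits. Either E2F string was found in at least 1 window of 3 of the 4 subunits that fell and of 1 of the 5 that did not pass, and 11.0% of 27305 genes with windows held one. The condensin II subunits NCAPG2 and NCAPD3, outside these 9, went the other way. NCAPG2 fell and its window held neither E2F string, while NCAPD3 did not pass and a window of it held TTCCCGC. No window was matched for the condensin II subunit NCAPH2, which fell. Whether the E2F strings go with a fall was not tested. TTTGAA was found for 5 of the 9 (SMC3, SMC2, SMC4, NCAPD2 and NCAPG), of which 1 fell, beside 18.2% of all genes. CCAAT was found for 4 of the 9 (STAG1, STAG2, NCAPD2 and NCAPH), of which 2 fell, beside 39.7% of all genes. These are letter matches in a short window, and binding was not measured.

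The changes of cohesin and of condensin subunits overlapped in range. In cohesin, 2 of 4 measured subunits fell, with a median change of -0.18 and a range of -0.35 to 0.074. In condensin, 2 of 5 fell, with a median of -0.21 and a range of -0.36 to -0.056. The median of condensin minus that of cohesin was -0.031, within the replicate spread of that difference (SD 0.043). The mean change was -0.16 for cohesin and -0.22 for condensin. Per array, the mean deviation of the cohesin subunits from their Control means was -0.20, -0.10 and -0.17 in the Dox cultures, and that of the condensin subunits was -0.26, -0.17 and -0.24. The condensin deviation minus the cohesin deviation was -0.059, -0.069 and -0.073 in the 3 Dox cultures. The same difference lay between -0.0083 and 0.0051 in Control, where it centres on 0 by construction. In size, its Dox mean of -0.067 exceeded its SD between Dox cultures (0.0073), unlike the difference of medians. The sign of this mean difference rests on STAG2 (0.074). With STAG2 left out, the mean change of the other measured cohesin subunits is lower than that of condensin. With the shared RAD21 probe set counted as cohesin, the cohesin median was -0.098 and the difference of medians -0.11. No test was made of the groups of subunits, which were chosen with results of these data known.

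Ratios between partner subunits were compared within each array. In log2 ratio within an array, SMC1A over SMC3 moved by -0.093, -0.39 and -0.26 in the Dox cultures relative to the Control mean, with Control arrays between -0.053 and 0.049. SMC2 over SMC4 moved by -0.13, -0.15 and -0.17, with Control arrays between -0.015 and 0.017. STAG1 over STAG2 moved by -0.38, -0.26 and -0.36, with Control arrays between -0.0081 and 0.0049. In all 3 pairs every Dox array lay below every Control array. The subunit with the lower change was written first in each ratio, so the shared direction follows from that order. Of all 251115255 pairs of genes, 28.6% had ratios that did not overlap between the groups, in either direction. The exact two-sided permutation test gave p = 0.1 for each pair, also after Benjamini-Hochberg adjustment over the 3 pairs, which is the smallest value possible here.

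The Dox cultures did not vary alike in all subunits. In SMC3, STAG1, STAG2, SMC2, SMC4 and NCAPG, culture 1 was lowest, culture 3 was in the middle and culture 2 was highest. This order was found in 6 of the 9 subunits and in 17.6% of all genes. Of the 49 measured genes in the related lists below, 15 had it. In SMC1A and NCAPH culture 3 was lowest and culture 1 highest, and in NCAPD2 culture 2 was lowest and culture 1 highest. The Control arrays of STAG1, STAG2 and NCAPG had the same order by culture number as their Dox arrays. Those of SMC3, SMC2 and SMC4 did not. The SD between Dox arrays was 0.12 for SMC3, 0.13 for SMC2 and 0.14 for SMC4, against 0.0092, 0.029 and 0.035 in Control, while the medians over all genes were 0.063 in Dox and 0.051 in Control. NCAPH and SMC1A had SDs of 0.036 and 0.041 in Dox. Averaged over the 4 SMC arms, the deviation from Control was -0.25, -0.081 and -0.20 in Dox cultures 1, 2 and 3. Averaged over NCAPD2, NCAPG and NCAPH it was -0.26, -0.29 and -0.30. These averages do not describe each member, since SMC1A differed in order from the other arms and NCAPG shared the order of those arms. A difference between arms and other subunits was not tested.

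**Figure D3:**
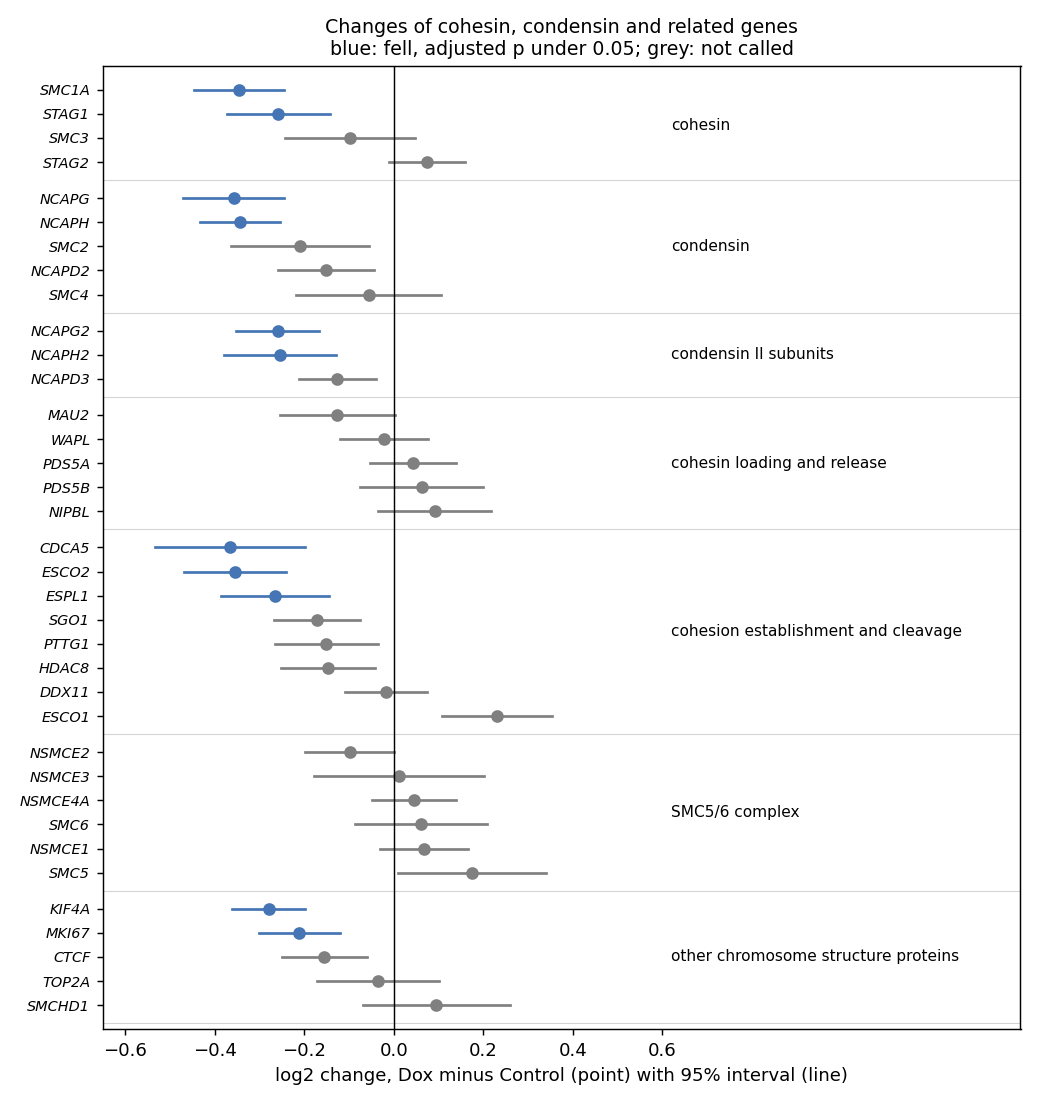
Log2 change (Dox minus Control, horizontal axis) with its 95% limma interval for the measured cohesin and condensin subunits and related genes (vertical axis, grouped by list); blue marks genes that fell, grey those that did not pass. CDCA5 (-0.37) and ESCO2 (-0.35) lie close to NCAPG (-0.36), and NCAPG2, NCAPH2 and ESPL1 lie nearer to 0, between -0.27 and -0.25. No loader, release factor or SMC5/6 gene passed.

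Related genes were taken from lists chosen by role. All 3 subunits particular to condensin II had lower means, and 2 fell: NCAPG2 (-0.26, SE 0.039, limma adjusted p = 0.0165) and NCAPH2 (-0.25, SE 0.053, limma adjusted p = 0.0397). NCAPD3 did not pass (-0.13, limma adjusted p = 0.0914). The median of the list was -0.25. NCAPH2 missed the threshold in all 6 fits without 1 array, where limma adjusted p ran from 0.0709 to 0.133, and NCAPG2 kept its call only without Dox replicate 1 or 2. With the fit and the adjustment over all probe sets, none of the 3 passed. With dim genes left out, NCAPD3 and the condensin I subunit NCAPD2 passed as well (limma adjusted p = 0.032 and 0.0347). The D-type HEAT subunits were not tested against the other subunits.

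Genes that establish or end sister cohesion also fell in part, 3 of 8, with none risen and a median of -0.16. They were ESCO2 (-0.35, SE 0.048, limma adjusted p = 0.0121), which acetylates SMC3 in S phase, CDCA5 (-0.37, SE 0.071, limma adjusted p = 0.0313), which encodes sororin, the protector of cohesin from release, and ESPL1 (-0.27, SE 0.051, limma adjusted p = 0.0302), which encodes separase, the protease that cuts RAD21. ESCO2 lost its call without Dox replicate 3 (adjusted p = 0.0593 by limma), and of the fits without 1 array CDCA5 and ESPL1 passed only in that without Dox replicate 1. CDCA5 has 2 probe sets, and their mean changed by -0.23 (limma adjusted p = 0.0936). ESCO1, the other acetyltransferase of SMC3, named here after its values were seen, was higher in every Dox array (6.42, 6.45 and 6.54 in Control, 6.63, 6.78 and 6.70 in Dox) and just missed the threshold (0.23, limma adjusted p = 0.0501). With dim genes left out or with array weights, among other settings, it passed, and its adjusted p over all alternatives ran from 0.0121 to 0.16.

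None of the 5 genes of cohesin loading and release passed limma's test. Their changes were 0.091 for NIPBL and -0.13 for MAU2, which form the loader, -0.022 for WAPL, the release factor, and 0.043 and 0.062 for PDS5A and PDS5B, its partners. Limma adjusted p was 0.227 or more for each, and none had an unadjusted p under 0.05. In the SMC5/6 complex, the third SMC complex, none of 6 passed, the median was 0.052, and the smallest adjusted p belonged to SMC5 (0.17, limma adjusted p = 0.2, unadjusted p = 0.0415). NSMCE2 (-0.099) and NSMCE1 (0.067) followed. Of the meiotic cohesin subunits, SMC1B was under the olfactory receptor level at 2.58 in Control. REC8 (0.094) and STAG3 (0.11) had Control means of 5.51 and 5.08, not far above that level, and did not pass. RAD21L1 was not measured as a single gene.

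Among other proteins of chromosome structure, 2 of 5 fell. KIF4A, a chromokinesin that binds condensin, went from 7.87 ± 0.0061 to 7.59 ± 0.021 (SD, n = 3 per group; -0.28, limma adjusted p = 0.0102), and MKI67, a coat protein of mitotic chromosomes, changed by -0.21 (limma adjusted p = 0.0259). MKI67 missed the threshold in all 6 fits without 1 array (limma adjusted p from 0.0571 to 0.0994) and with quantile normalization repeated (adjusted p = 0.079), and KIF4A lost it without Control replicate 3 (adjusted p = 0.0534) or Dox replicate 3 (adjusted p = 0.0524). CTCF, which halts cohesin at loop anchors, did not pass (-0.16, limma adjusted p = 0.0696), nor did TOP2A (-0.037), the topoisomerase of chromosome condensation, and SMCHD1 (0.095), a noncanonical SMC protein. Of 9 measured mitotic cell cycle genes 3 fell, CCNB1 (-0.38), AURKA (-0.34) and PLK1 (-0.29, called in only 1 of the 6 fits without 1 array), and all 9 had lower means, with a median of -0.18. The log2 of their summed signal was 12.2 to 12.3 in Control and 11.9 to 12.0 in Dox. All 10 genes of a replication list fell (4 to 10 without 1 array), with MCM6 (-0.51), MCM3 (-0.56) and GINS2 (-0.75) among them, and their summed signal went from 11.8 to 11.9 in Control to 11.3 to 11.4 in Dox on the log2 scale. The part of these cell cycle changes in those of the condensin and cohesin genes was not tested.

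**Figure D4:**
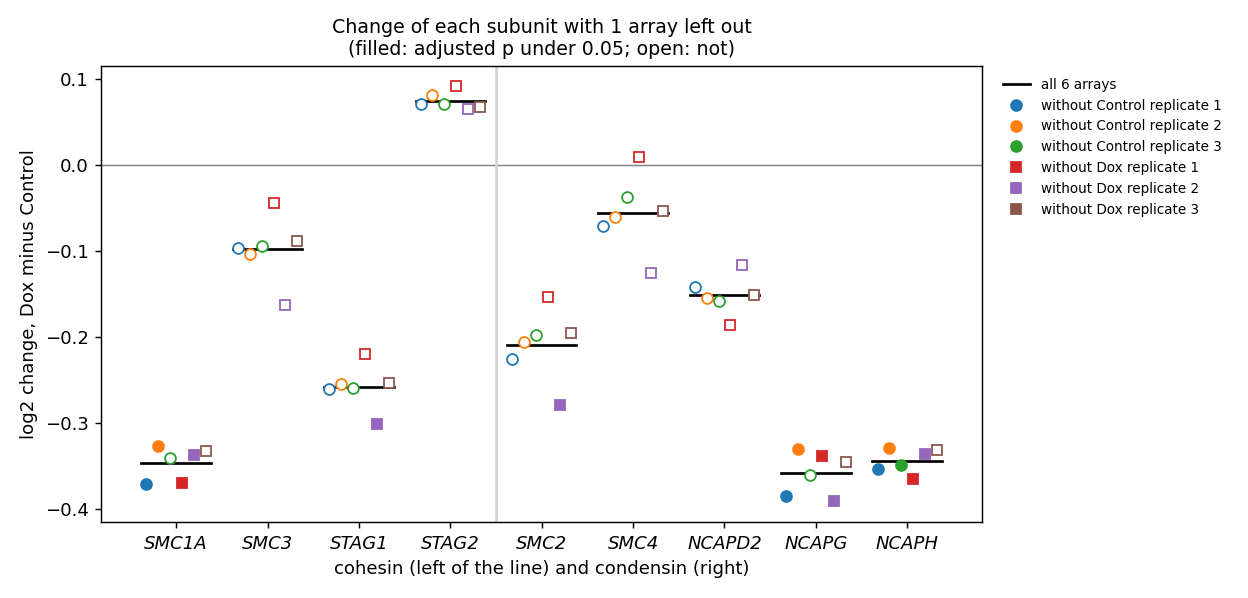
Log2 change (Dox minus Control, vertical axis) of each subunit (horizontal axis) with 1 array left out; black lines give the value over all 6 arrays, circles leave out a Control array and squares a Dox array, and filled symbols have adjusted p under 0.05. SMC1A, NCAPG and NCAPH stay between -0.39 and -0.33, whereas SMC3, SMC2 and SMC4 move with Dox culture 1 or 2.

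Leaving out single arrays ended some calls, also where the size of the change moved little. NCAPH lost its call without Dox replicate 3 (limma adjusted p = 0.0511). NCAPG lost it without Dox replicate 3 (adjusted p = 0.059) or Control replicate 3 (adjusted p = 0.0558), as did SMC1A (adjusted p = 0.0524 and 0.051). STAG1 kept its call only without Dox replicate 2, and limma adjusted p in the other 5 fits ran from 0.0524 to 0.105. Of the 17 subunits and related genes with a call that are named by rule, 12 lost it without Dox replicate 3, 10 without Control replicate 3, 7 each without Control replicate 1 or 2, 5 without Dox replicate 2 and 3 without Dox replicate 1. Fits with fewer arrays have less power, but each of these leaves out 1 array, so the number of arrays does not set them apart. Why the losses differed between them was not tested. Among the subunits without a call, SMC3 changed by -0.045 without Dox replicate 1 and by -0.16 without Dox replicate 2. With the fit and the adjustment over all 70523 probe sets, NCAPH alone of the subunits passed (limma adjusted p = 0.0497). Limma adjusted p was 0.0553 for SMC1A, 0.061 for NCAPG and 0.112 for STAG1. The SE was also larger in that fit, 0.048 for NCAPH against 0.038 in the main fit.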

How the data were processed

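RNA of 3 Control and 3 Dox cultures was measured on 1 array each. The authors deposited log2 values per probe set. The submitters' processing notes name RMA, which corrects background, normalizes between arrays and summarises probes. The log2 scale was read from the values (0.485 to 14.2), and no version, genome build or annotation is stated in the labels. No detection calls accompany the values. Precision is limited by the 6 arrays. Array medians lay between 4.12 and 4.17. Groups came from the sample titles, and the cultures are described as independent.

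Of 70523 probe sets, 23781 carried 1 symbol in the platform's annotation, 1543 several and 45199 none here. Outdated symbols (306) were updated through RefSeq, and for 528 genes with several probe sets the one with the highest mean was kept, leaving 22411 genes. The test was limma's (version 3.58.1 under R 4.3.3, lmFit and eBayes, treatment as the only term). On simulated data the procedure recovered 40.3% of 67 changes of 0.3 on the log2 scale, 79.1% of 67 of 0.5 and 95.45% of 66 of 1. Of its 149 calls there, 6 were false. Noise was drawn for each gene on its own, without deviations shared by an array. In the data themselves 732 genes fell and 656 rose, so the adjusted threshold was stricter in the simulation. The recovered shares therefore need not hold for these data. A change of 0.3 or less that did not pass can still be real. Tables used Python 3.11.15 and pandas 2.3.3, and figures matplotlib 3.10.9. The members, gene lists and tests were chosen with earlier results of these data known. Named by rule were all members, SLBP, and from each related list all genes where it holds up to 5, otherwise the 3 with the smallest adjusted p. Promoters and names are RefSeq's (GRCh38.p14), and COL3A1, BUB1B and RAD21L1 were not measured as single genes. A further listed marker is not reported here.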

Additional observations from a re-analysis of the deposited data

How the results depend on the processing

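The direction of the change of SLBP and of every subunit except SMC4 was the same in all alternatives, and SLBP stayed past the threshold in each (log2 change -0.81 to -0.72 over the fits that left out 1 array). SMC4, WAPL and TOP2A, none of which passed the test, reversed without Dox replicate 1, with ranges of -0.13 to 0.0095, -0.048 to 0.0069 and -0.084 to 0.011 over the fits without 1 array. Of all genes, 1025 rose and 1137 fell with background subtraction, and 1181 and 1435 with dim genes left out. With array weights 1511 rose and 1714 fell, and in the fit over every probe set 65 and 64. Leaving out 1 array gave 63 to 561 rises and 69 to 537 falls. Of the cohesin subunits 1 fell with median centring of each array and none in the fit over every probe set. Without 1 array 0 to 2 fell. Of the condensin subunits 4 fell with dim genes left out and with array weights, and 1 in the fit over every probe set. Without 1 array 0 to 3 fell. The condensin median ran from -0.28 to -0.19 without 1 array, the cohesin median was -0.098 with the shared RAD21 probe set added, an alternative chosen after seeing the data, and the difference of the medians was then -0.11. Some of the fits hold fewer or more genes or arrays, and the cause of these shifts was not tested.

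Control and Dox cultures share replicate numbers. Taken over all genes, same-numbered cultures did not deviate together (correlations of 0.030, -0.00056 and -0.016), and the number is not taken as a pairing. Single genes can differ from this. With the number as a replicate block, the SE of NCAPG was 0.035, against 0.048 in the main fit. The SE was larger under the block for SMC1A (0.047 against 0.042) and NCAPH (0.040 against 0.038), and smaller for the other subunits. In that fit 157 genes rose and 174 fell, 0 cohesin subunits fell (SMC1A adjusted p = 0.0541, STAG1 adjusted p = 0.0675), and NCAPG and NCAPH kept their calls. Among related genes, NCAPG2 (adjusted p = 0.0553), NCAPH2 (adjusted p = 0.0655), ESPL1 (adjusted p = 0.0548), MKI67 (adjusted p = 0.0645) and PLK1 (adjusted p = 0.0521) lost theirs under the block.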
